A study of Rattus norvegicus with 6 samples.

Results

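The alpha-class glutathione transferases are a family of cytosolic enzymes, and 5 of their genes, Gsta1, Gsta2, Gsta3, Gsta4 and Gsta5, were followed here in rat H9c2 cells. The 5 were taken by gene symbol from a deposited table of 40456 genes, and all 5 were found there. The family was chosen on its own values in the comparison of Tug1 gapmer with control gapmer, in which Gsta5, Gsta2 and Gsta1 had stood out as higher, so the values of the members in that comparison are a description and carry no test. Gene expression was measured by sequencing of poly-A RNA in 6 libraries. H9c2 is an established line of rat heart myoblasts, of WT genotype in the labels and described there as cardiomyocyte. In all 6 libraries the cells had been kept for 5 days in medium with 1% serum and 1 µM retinoic acid and were transfected by lipofection for 24 h before harvest with a locked nucleic acid gapmer at 25 nM, so the controls carry the retinoic acid, the transfection and a gapmer as well. A gapmer is a short antisense strand, and the RNA that it binds is cleaved by RNase H. In 3 libraries it was the negative control gapmer and in 3 it was the gapmer against Tug1, a long non-coding RNA. The labels do not say that the 3 libraries of a group came from separate cultures, so error terms and p-values measure the spread between these libraries, which may be technical. The 2 oligonucleotides, which are the sole labelled difference between the groups, are given 5′ to 3′ as the labels have them.
Tug1 gapmer: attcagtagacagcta
control gapmer: gctcccttcaatccaa

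Glutathione transferases join the tripeptide glutathione to electrophiles such as lipid aldehydes, epoxides and drug metabolites, and the conjugates are then pumped out of the cell and processed to mercapturates. Alpha-class enzymes also reduce lipid hydroperoxides with glutathione, and the enzyme encoded by Gsta4 is known for its preference for 4-hydroxynonenal, an aldehyde made when membrane lipids oxidise. The class is abundant in liver, and rodent alpha-class genes are textbook targets of the transcription factors NRF2, which binds antioxidant response elements, and AHR, which binds xenobiotic response elements.

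Total counts ran from 12978548 to 13544337 per library, and 1 CPM, the unit of counts scaled to library size with TMM factors, stood for 12.9 to 13.8 counts. Tug1 itself was at 53.9 ± 1.77 CPM in controls and 11.8 ± 0.608 CPM after its gapmer (SD, n = 3), which is a log2 fold change of -2.19 (SE 0.0786, adjusted p from edgeR 4.39e-16), in the direction of the labels. Libraries differed by an SD of the log2 ratio of 0.126 to 0.157 within groups and 0.488 to 0.518 between groups. Of 12 cardiomyocyte markers, 4 (Tnnt2, Actc1, Gata4 and Myl2) were above 3 counts in every library, while Myh6, Myh7, Tnni3, Nppa, Nppb, Myl7, Ryr2 and Nkx2-5 were at or under 3 counts in at least 1 library and Nppb had none in any. The summed level of that list was 359 to 390 CPM in controls and 418 to 470 CPM after knockdown. Tnnt2 made up most of it, at 348 ± 17.9 and 410 ± 25.1 CPM (SD, n = 3). Of 10 skeletal muscle markers, 9 were above 3 counts throughout, with sums of 1344 to 1354 and 1793 to 1943 CPM. For fibroblast markers 6 of 7 were above 3 counts throughout, with sums from 43638 to 44984 CPM in controls and 41051 to 43841 CPM after knockdown. Within this list Col3a1 and Dcn had higher means after knockdown, and Col1a1, Col1a2, Lum, Thy1 and Pdgfra had lower means.

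Gsta5 and Gsta2 were almost silent in control cells and were more than 10-fold higher after the Tug1 gapmer, Gsta1 and its relative Gsta6 were about 2-fold higher from a larger starting level, Gsta4 was slightly lower, and Gsta3 had at most 6 counts in any library. The summed counts of the 5 members were 630, 602 and 659 in control replicates 1, 2 and 3 and 2032, 1908 and 1743 in knockdown replicates 1, 2 and 3. Those sums amount to 48.5 ± 2.12 CPM in controls and 140 ± 7.88 CPM in knockdown libraries (SD, n = 3), or 2.88 times the control level, and every knockdown library lay above every control library. The log2 fold change of the family sum, from a fit of the whole table with the 5 member genes replaced by their sum, was 1.53 (SE 0.059). Such a sum does not depend on how counted reads shared between the 5 members were divided among them. It would miss shared reads that were left uncounted or were counted to Gsta6. Of the 5 members, 4 were tested. As a description 3 were called higher and 1, Gsta4, lower at an adjusted p under 0.05 in edgeR. Of all 14216 tested genes 61.7% were called in either direction, 30.8% higher and 30.9% lower. For 3 of the 4 tested members the knockdown libraries all lay above the control libraries, as they did for 33% of all tested genes.

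**Figure D1:**
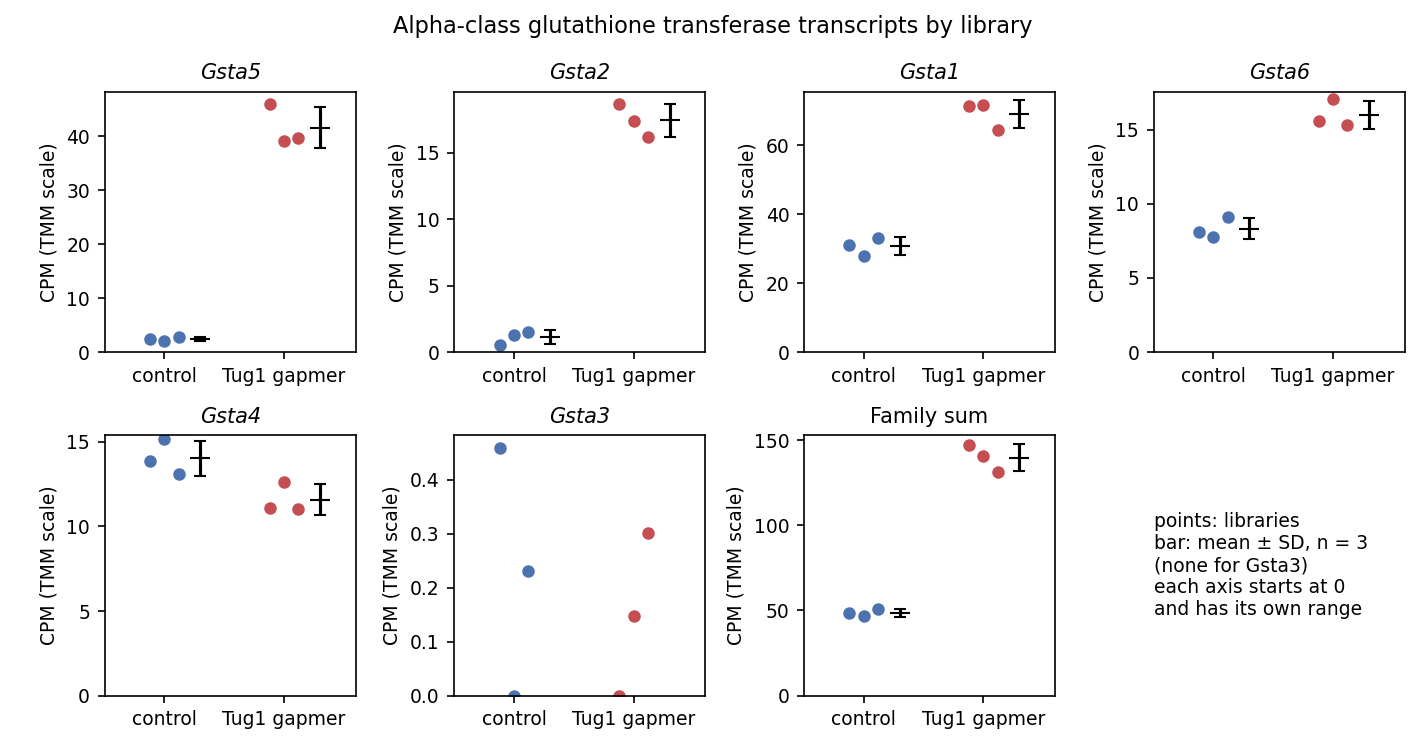
Levels of Gsta5, Gsta2, Gsta1, Gsta6, Gsta4, Gsta3 and the sum of the 5 members in each library, in CPM on the TMM scale, with controls in blue and the Tug1 gapmer group in red. Points are libraries and black bars are mean ± SD (n = 3, not drawn for Gsta3), and the groups are apart in every panel but that of Gsta3.

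Gsta5 had 32, 27 and 36 counts in control replicates 1, 2 and 3 and 636, 531 and 526 counts in knockdown replicates 1, 2 and 3. All 3 controls were low and all 3 knockdown libraries were high, with knockdown replicate 1 the highest of them. The group levels were 2.44 ± 0.343 and 41.6 ± 3.81 CPM (SD, n = 3), a ratio of 17.1 and a log2 fold change of 4.09 (SE 0.124).

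Gsta2 had 7, 17 and 20 counts in control replicates 1, 2 and 3 and 258, 236 and 215 counts in knockdown replicates 1, 2 and 3. Control replicate 1 was the lowest of the controls, and the groups were far apart. The group levels were 1.13 ± 0.527 and 17.4 ± 1.23 CPM (SD, n = 3), a ratio of 15.4 and a log2 fold change of 3.94 (SE 0.194). With so few control counts the size of this change rests on the controls: the log2 fold change was 3.60 without control replicate 1 and 4.23 without control replicate 3. Gsta5 had 2.47, 2.25 and 2.45 counts for each count of Gsta2 in knockdown replicates 1, 2 and 3, and 4.57, 1.59 and 1.80 in control replicates 1, 2 and 3, where the counts are small. Summed, Gsta2 and Gsta5 went from 3.57 ± 0.678 to 59.1 ± 4.89 CPM (SD, n = 3), which is a log2 fold change of 4.05 (SE 0.112).

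Gsta1 held most of the family's counts in control cells. It had 404, 362 and 430 counts in control replicates 1, 2 and 3 and 985, 968 and 852 counts in knockdown replicates 1, 2 and 3. The lowest knockdown library, at 64.2 CPM, was well above the highest control library, at 33.1 CPM. The group levels were 30.7 ± 2.58 and 69.0 ± 4.13 CPM (SD, n = 3), a ratio of 2.25 and a log2 fold change of 1.17 (SE 0.0706).

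Gsta4 moved the other way and by little. It had 181, 196 and 170 counts in control replicates 1, 2 and 3 and 153, 171 and 146 counts in knockdown replicates 1, 2 and 3. Raw counts of the groups overlapped, since knockdown replicate 2 had 171 and control replicate 3 had 170, whereas on the CPM scale the highest knockdown value, 12.6, stayed under the lowest control value, 13.1. The group levels were 14.0 ± 1.04 and 11.6 ± 0.918 CPM (SD, n = 3), a ratio of 0.825 and a log2 fold change of -0.28 (SE 0.109).

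Gsta3 had 6, 0 and 3 counts in control replicates 1, 2 and 3 and 0, 2 and 4 counts in knockdown replicates 1, 2 and 3. The groups overlapped, 4 of the 6 libraries were at or under 3 counts, which is 0.217 to 0.232 CPM at this depth, and the gene was not tested, so no fold change is given. Whether Gsta3 changed by a small amount cannot be told from so few counts. No rise like that of Gsta2 or Gsta5 was seen. A cutoff of 3 counts speaks to counting error only, since the reads carry no molecular identifiers and are not independent of each other. No limit of detection was computed.

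The make-up of the family's counts changed with the group. Gsta1 went from 60.1% to 65.3% of the members' counts in the controls to 48.5% to 50.7% in the knockdown libraries. Gsta4 went from 25.8% to 32.6% down to 7.53% to 8.96%. Gsta5 went from 4.49% to 5.46% up to 27.8% to 31.3%, and Gsta2 from 1.11% to 3.03% up to 12.3% to 12.7%. Gsta5 and Gsta1 made up 42.9% and 42.0% of the net gain in the family's mean CPM, and Gsta2 17.9%. These are shares of counts: no transcript lengths were used here, so the order of the members by counts is not an order of their levels per length.

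**Figure D2:**
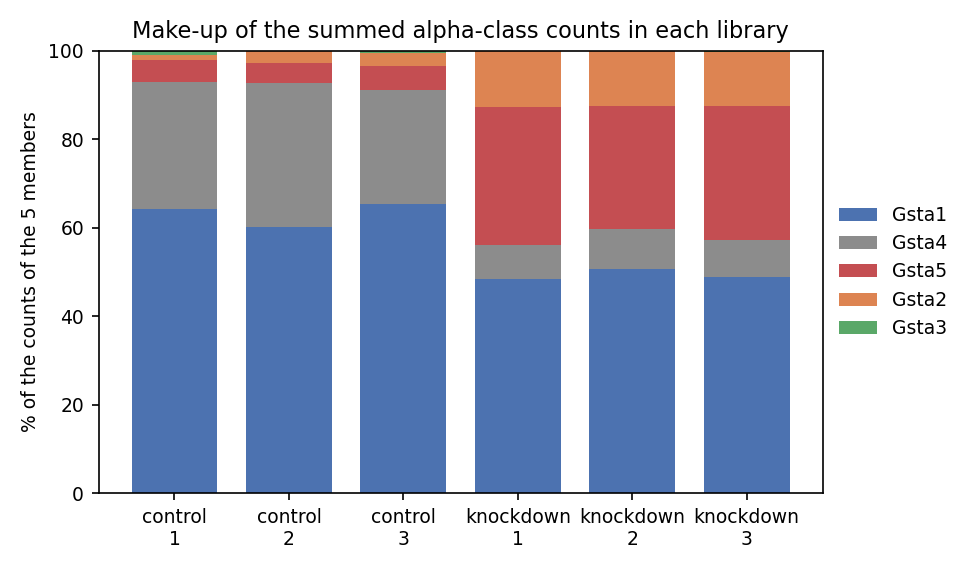
Share of each member in the summed counts of the 5 members, in percent, for each of the 6 libraries (stacked bars that add up to 100). Gsta5 and Gsta2 take a small part of the bars of the controls and a large part of the bars of the knockdown libraries, while the part of Gsta4 shrinks.

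Gsta6, an alpha-class gene outside the 5 members, had 106, 100 and 118 counts in control replicates 1, 2 and 3 and 215, 231 and 203 counts in knockdown replicates 1, 2 and 3. Its groups did not overlap, with 8.31 ± 0.699 and 16.0 ± 0.948 CPM (SD, n = 3) and a log2 fold change of 0.94 (SE 0.113, adjusted p from edgeR 1.67e-07). Gsta1 had 3.81, 3.62 and 3.64 counts for each count of Gsta6 in control replicates 1, 2 and 3 and 4.58, 4.19 and 4.20 in knockdown replicates 1, 2 and 3, so the ratio was a little higher in each knockdown library. By gene ID, 3 further entries of the table were alpha-class genes or pseudogenes, now named Gsta4-ps3, Gsta4-ps4 and Gsta4l1, and none had more than 6 counts in a library. With Gsta6 and those entries added, the family sum had a log2 fold change of 1.45 (SE 0.058).

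Alpha-class genes are close copies, and how the authors counted reads that match several of them is not given in the sources used here, so the division of counts between Gsta1, Gsta2, Gsta3, Gsta5 and Gsta6 is uncertain and its part in the single-gene values was not tested. The symbols have also moved between genes over time. The RefSeq gene table for the rat assembly GRCr8 lists Gsta2 as an older symbol of the gene now called Gsta5, Gsta1 as an older symbol of Gsta2, Gsta5 as an older symbol of Gsta3, and both Gsta3 and Gsta5 as older symbols of Gsta1. Its current Gsta1 carries the subunit name Yc1 and its current Gsta3 the subunit name Yc2, the subunit known for conjugating the epoxide of aflatoxin. The authors' annotation is not given in the sources used here, and genes were matched to RefSeq by current symbol, so a deposited symbol could stand for another gene of the family if an older naming was used. In the deposited table Gsta4, Gsta5 and Gsta2 stood close together as entries 21267, 21268 and 21270, and Gsta3, Gsta1 and Gsta6 as entries 22470, 22474 and 22476, which is the order of the current symbols along the assembly.

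In GRCr8 the family lies in 2 groups on different chromosomes, Gsta4, Gsta5 and Gsta2 in one and Gsta3, Gsta1 and Gsta6 in the other. Gsta4, the member that was lower, is the direct neighbour of Gsta5, the member with the largest rise. The nearest protein-coding genes of the table on each side, 2 per side and leaving out placeholder names, were looked up for both groups after the members' values were known. Beside Gsta4, Fbxo9, which encodes an F-box protein, rose from 19.4 ± 1.25 to 28.3 ± 0.848 CPM (SD, n = 3, log2 fold change 0.55, SE 0.0818, adjusted p from edgeR 4.12e-06). Cilk1, a kinase gene of the cilium, rose by a log2 fold change of 0.28 (SE 0.0854, adjusted p from edgeR 0.00668). Dppa5 and Ooep beyond Gsta2 were too low to be tested. Around the other group, Tmem14a (log2 fold change 0.60, adjusted p from edgeR 0.000137) and the potassium channel gene Kcnq5 (0.67, 8.67e-06) rose. Tram2 (-0.10, adjusted p from edgeR 0.162) did not pass the threshold, and Khdc1b was too low to be tested. None of these flanking genes that were tested had a log2 fold change as large as that of Gsta1, Gsta2 or Gsta5.

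**Figure D3:**
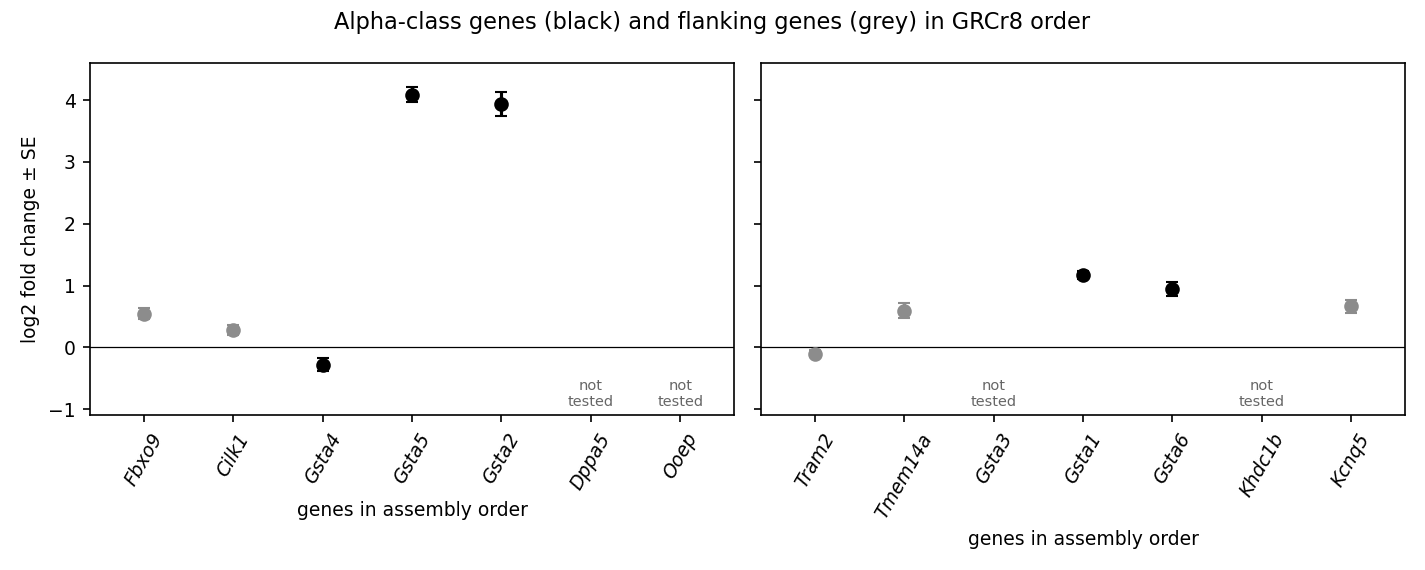
Log2 fold change (Tug1 gapmer over control gapmer, bars are SE) of the alpha-class genes (black) and of 2 flanking genes on each side (grey), in the order of assembly GRCr8 and not to scale, with 1 panel for each chromosomal group. Gsta5 and Gsta2 stand at 4.09 and 3.94 beside flanking genes at 0.55 or lower or too low to be tested.

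Sequence windows around the RefSeq transcript starts (250 bases before to 50 after, assembly GRCr8) were available for all 6 alpha-class genes, as 7 windows since Gsta3 has 2. They are shown for Gsta5, Gsta2 and Gsta1, the members that were higher. The bases before the start are given 5′ to 3′ on the strand of the gene, with matches to the searched motifs in capitals. Gsta5 lies at chr8:87988104-87988353 on the plus strand, Gsta2 at chr8:88077093-88077342 on the minus strand and Gsta1 at chr9:31216533-31216782 on the minus strand.
Gsta5: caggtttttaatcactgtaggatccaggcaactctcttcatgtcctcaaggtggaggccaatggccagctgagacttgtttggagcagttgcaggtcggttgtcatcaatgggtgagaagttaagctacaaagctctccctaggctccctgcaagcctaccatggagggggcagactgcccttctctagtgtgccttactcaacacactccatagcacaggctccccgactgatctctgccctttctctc
Gsta2: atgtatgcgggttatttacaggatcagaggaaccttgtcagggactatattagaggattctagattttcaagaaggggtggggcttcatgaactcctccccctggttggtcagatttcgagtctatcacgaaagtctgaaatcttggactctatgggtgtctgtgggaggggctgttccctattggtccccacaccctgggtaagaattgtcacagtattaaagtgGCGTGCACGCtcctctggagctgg
Gsta1: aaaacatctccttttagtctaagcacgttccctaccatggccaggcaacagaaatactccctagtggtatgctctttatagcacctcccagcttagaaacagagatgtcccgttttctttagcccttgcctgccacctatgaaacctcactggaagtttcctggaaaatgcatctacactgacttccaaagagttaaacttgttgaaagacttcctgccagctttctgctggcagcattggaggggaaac

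The windows were searched on both strands for the core of the antioxidant response element (TGACNNNGC), the core of the xenobiotic response element (GCGTG) and the AP-1 site (TGANTCA). No hits to different motifs overlapped in the alpha-class windows. The antioxidant response element core was present in 3 of the 7 windows, those of Gsta1, Gsta2 and the first window of Gsta3, against 12.1% of all 33469 windows of that length. In Gsta1 it began at base 31 of the transcript and in Gsta2 at base 37, on the opposite strand, while in Gsta3 it began 17 bases before the start. The Gsta5 window held a match to none of the 3 motifs, which says only that these letters are not in this window. The xenobiotic response element core, found in 29.7% of all windows, was present in the windows of Gsta2, Gsta4, Gsta6 and the second of Gsta3, with a pair of matches side by side in Gsta2 that began 24 and 19 bases before the start. No alpha-class window held the AP-1 site, which was in 7.33% of all windows.

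The antioxidant response element core is shown in capitals within 30 bases for the 3 genes that had it, since the site of Gsta1, a gene that was higher, resembles that of Gsta3, a gene with at most 6 counts in any library. The site of Gsta1 is at chr9:31216483-31216512 (minus strand), that of Gsta3 at chr9:31154962-31154991 (plus strand) and that of Gsta2 at chr8:88077043-88077072 (minus strand).
Gsta1: aactcaggcaTGACTTTGCatttttcttct
Gsta3: aactcaggcaTGACTTCGCattttttccta
Gsta2: agaagccacgactctcGCTAGGTCAgtact
Within the 9 bases of the core, counted from its 5′ end, Gsta3 differs from Gsta1 by T7C. In local alignment, the Gsta1 window and the first window of Gsta3 aligned over 243 bases with 81.1% of them identical. The other 20 pairs of windows aligned over 9 to 33 bases. The windows of Gsta5 and Gsta2, the genes with the largest rises, aligned over 26 bases. A match is a description of letters and not evidence of binding.

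**Figure D4:**
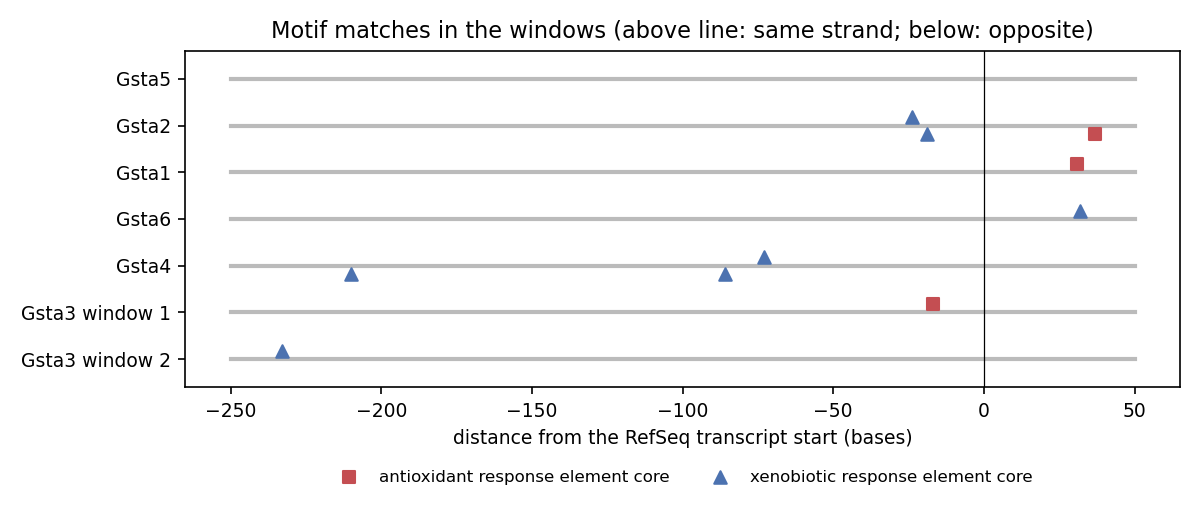
Positions of motif matches in the 7 sequence windows, as the distance in bases from the RefSeq transcript start, with the antioxidant response element core as red squares and the xenobiotic response element core as blue triangles. Marks above a line are on the gene's strand and marks below on the opposite strand, and the Gsta5 window has none.

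Among the other glutathione transferases, some rose and some fell, and none came near the changes of Gsta5 and Gsta2. Of 27 listed genes of the mu, pi, theta, zeta, omega and kappa classes, relatives and membrane-bound forms, 26 were in the table and 17 were tested. Of these 9 were higher and 5 lower, or 82.4% called beside 61.7% of all tested genes. The largest rise was 0.79 on the log2 scale and the median was 0.15, beside 0.00 for all tested genes. Gstz1, the zeta-class gene of tyrosine breakdown, rose from 10.2 ± 0.442 to 17.6 ± 0.430 CPM (SD, n = 3, log2 fold change 0.79, SE 0.101, adjusted p from edgeR 5.00e-07). The theta-class genes Gstt1 (0.63) and Gstt2 (0.58) and the mu-class gene Gstm1 (0.57) rose as well. The genes called lower were Gstm3l, from 1.64 ± 0.457 to 0.764 ± 0.118 CPM (SD, n = 3, adjusted p from edgeR 0.00696), Gstcd (log2 fold change -0.61), Gstm5 (-0.49) and the omega-class genes Gsto2 (-0.35) and Gsto1 (-0.23). Gstp1, the pi-class gene, rose from 989 ± 34.6 to 1270 ± 76.4 CPM (SD, n = 3), which is a log2 fold change of 0.36 (SE 0.0461, adjusted p from edgeR 4.42e-07). Gstm2 rose by 0.15 (adjusted p from edgeR 0.0115), a call that was lost without control replicate 1 (0.12, adjusted p from edgeR 0.0917). Mu-class genes are close copies too, so their values share the uncertainty over divided reads.

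Among genes that make, recycle and break down glutathione, some rose and some fell. Of 21 listed genes, all tested, 10 were higher and 7 lower, or 81% called beside 61.7% of all tested genes. The median log2 fold change was 0.08. Gsr, which encodes glutathione reductase, rose from 35.7 ± 2.02 to 73.1 ± 1.18 CPM (SD, n = 3, log2 fold change 1.03, SE 0.0618, adjusted p from edgeR 2.18e-12). Gclc, the catalytic subunit of the first enzyme of glutathione synthesis, rose by 0.67. Pgd (0.33), whose enzyme makes NADPH in the pentose phosphate pathway, rose too, and Cbs, an enzyme on the way from homocysteine to cysteine, rose by 1.89 from a low level of 1.90 ± 0.366 CPM (SD, n = 3). Both chains of the cystine importer were lower, Slc7a11 from 28.6 ± 1.82 to 16.9 ± 1.12 CPM (SD, n = 3, log2 fold change -0.76, SE 0.0865, adjusted p from edgeR 7.15e-08) and Slc3a2 by a log2 fold change of -0.46.

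Several exporters of glutathione conjugates were higher. Of 12 listed genes for export and mercapturate formation, 8 were tested, 5 were higher and 0 lower at an adjusted p under 0.05 in edgeR, or 62.5% called beside 61.7% of all tested genes, with a median log2 fold change of 0.40. The count of lower genes was also 0 at an unadjusted p under 0.05 and in DESeq2 and limma. Abcc5 rose from 93.4 ± 2.80 to 204 ± 5.92 CPM (SD, n = 3, log2 fold change 1.13, SE 0.0499, adjusted p from edgeR 1.43e-14). Abcc4 (1.10) and Abcc1 (0.93), the classical exporter of glutathione conjugates, rose by similar amounts. The peptidase gene Anpep (0.45), which acts on the exported conjugates, rose less. Abcc3 (-0.16, adjusted p from edgeR 0.190) did not pass the threshold, though each knockdown library lay below each control library. Abcc2, the exporter of liver cells, and Abcg2 were too low to be tested.

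Enzymes for aldehydes and quinones, which share substrates with the alpha class, included both large rises and large falls. Of 25 listed genes, 18 were tested, 7 were higher and 6 lower, or 72.2% called beside 61.7% of all tested genes. The median log2 fold change was 0.03. The aldo-keto reductase gene Akr1b8 rose from 284 ± 17.7 to 836 ± 55.0 CPM (SD, n = 3, log2 fold change 1.56, SE 0.0527, adjusted p from edgeR 1.85e-16). Its relatives Akr1b10 (1.86) and Akr1b1 (0.48) rose, with the same uncertainty over reads of close copies. The aldehyde dehydrogenase gene Aldh3a1 rose by 1.86, from 4.39 ± 1.28 CPM (SD, n = 3), and the quinone reductase gene Nqo1 by 1.11. Cbr3, a carbonyl reductase gene, fell from 31.1 ± 3.88 to 8.94 ± 0.192 CPM (SD, n = 3, log2 fold change -1.80, SE 0.104, adjusted p from edgeR 1.27e-12). The largest change of the list was the fall of Adh1 (-3.17, adjusted p from edgeR 1.84e-07), from a low level of 2.28 ± 0.212 CPM (SD, n = 3). Aldh1a3 (-1.56, adjusted p from edgeR 2.02e-06) fell too.

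Some glutathione peroxidases share the hydroperoxide activity of alpha-class enzymes. The glutathione peroxidase genes that were tested were called lower in the main fit, though Gpx4 was not called lower in every alternative. Of 12 listed peroxidase and peroxiredoxin genes, 10 were tested, 2 were higher and 8 lower. All of those tested were called, beside 61.7% of all tested genes, and their median log2 fold change was -0.35. With an offset for gene length 2 were higher and 5 lower, and when scaled by library totals 2 were higher and 6 lower. Gpx8 (-0.54) and Gpx1 (-0.50) fell, and so did the peroxiredoxin genes Prdx3 (-0.49), of mitochondria, and Prdx4 (-0.46), of the endoplasmic reticulum. Gpx4, which protects membrane lipids and was the most abundant of the peroxidases, was at 511 ± 17.6 and 466 ± 13.5 CPM (SD, n = 3), which is a log2 fold change of -0.13 (adjusted p from edgeR 0.0123) that turned to 0.06 with the length offset and did not pass there (0.198). The genes of this list that rose were Prdx2, from 239 ± 5.48 to 441 ± 20.9 CPM (SD, n = 3, log2 fold change 0.88, SE 0.0462, adjusted p from edgeR 2.48e-13), and Prdx1 (0.25).

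Transcripts of regulators known for alpha-class promoters that were tested moved by less than Gsta5 and Gsta2. Of 25 listed factors, 21 were tested, 14 were higher and 4 lower, or 85.7% called beside 61.7% of all tested genes. The median log2 fold change was 0.19. Nfe2l2, which encodes NRF2, was at 260 ± 7.06 and 290 ± 11.6 CPM (SD, n = 3), which is a log2 fold change of 0.16 (SE 0.046, adjusted p from edgeR 0.00501). Keap1, which encodes the protein that targets NRF2 for breakdown, rose by 0.26, Bach1, a repressor at the same elements, by 0.19 and the related activator Nfe2l1 by 0.19. The small partners Maff (-0.43) and Mafk (-0.34) fell, while Mafg (0.19, adjusted p from edgeR 0.0014) rose. Mafg was at 174 ± 8.41 and 199 ± 4.78 CPM (SD, n = 3), the highest level among these partners. Ahr was at 45.7 ± 2.73 and 43.5 ± 1.82 CPM (SD, n = 3, log2 fold change -0.07, adjusted p from edgeR 0.362) and did not pass the threshold. Its repressor Ahrr (0.74) and the nuclear receptor gene Ppard (1.01) rose, and Cebpa (-0.60) fell. Nr1i2, which encodes a receptor for drugs, was too low to be tested. The largest change of the list was that of Nr1i3 (1.19, adjusted p from edgeR 0.0319), which rested on few counts. It was at 0.514 ± 0.498 and 1.18 ± 0.316 CPM (SD, n = 3), and its groups overlapped.

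Of 15 other NRF2 targets, all tested, 12 were higher and 1 lower, with a median log2 fold change of 0.41. That is 86.7% called, beside 61.7% of all tested genes (30.8% higher and 30.9% lower). A rise of NRF2 and redox genes was known from an earlier look at these data and is not independent support. The largest rise among the 15 was that of Pir (2.18), which encodes pirin, followed by Cat (1.31), Srxn1 (0.93) and Osgin1 (0.82). Txn1, which encodes thioredoxin, fell by 0.63 on the log2 scale, and the abundant ferritin genes Ftl1 (0.30) and Fth1 (0.25) rose by little. Of 5 AHR targets only 2 were tested. Tiparp rose by 0.29 (SE 0.0654, adjusted p from edgeR 0.000465) and Cyp1b1 was at 131 ± 9.94 and 130 ± 13.3 CPM (SD, n = 3, adjusted p from edgeR 0.960). Cyp1a1, the classical AHR target, had 0, 1 and 3 counts in control replicates 1, 2 and 3 and 5, 14 and 2 counts in knockdown replicates 1, 2 and 3. Its groups overlapped, and it was not tested.

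**Figure D5:**
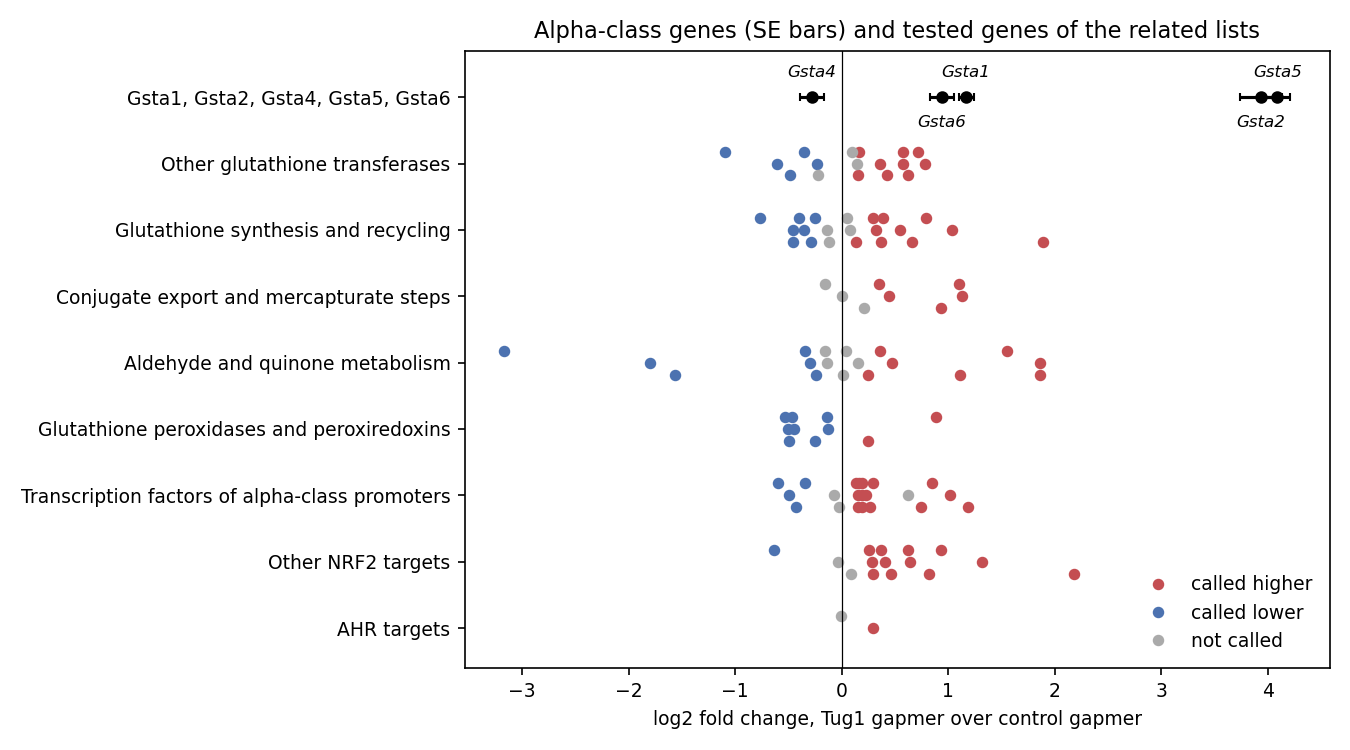
Log2 fold change (Tug1 gapmer over control gapmer) of the alpha-class genes that were tested (black, bars are SE) and of each tested gene of 8 related lists, called higher in red, called lower in blue and not called in grey at an adjusted p under 0.05 in edgeR. Gsta5 and Gsta2 lie to the right of every listed gene, and Gsta4 lies just left of 0.

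Compared by the shape of its profile over the 6 libraries, the family sum was most like Cyld, Akr1b8, Atp2b1, Cyb5r4 and Cyth1 among 12092 candidate genes. The measure was the root mean square distance between log2 CPM profiles centred on their own means, which was 0.0425 for Cyld, 0.0548 for Akr1b8, 0.0608 for Atp2b1, 0.0615 for Cyb5r4 and 0.0698 for Cyth1. Cyld encodes a deubiquitinase and went from 15.3 ± 1.02 to 43.6 ± 1.54 CPM (SD, n = 3). Akr1b8 is the aldo-keto reductase gene described above, and Atp2b1 encodes a calcium pump of the plasma membrane. Cyb5r4 encodes a cytochrome b5 reductase and Cyth1 an exchange factor of Arf proteins. These 6 libraries fall into 2 groups, so the measure mostly ranks genes by the size of the same rise.

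Markers of other cell types that the culture could hold were summed in the same way. Of 10 hepatocyte markers 2 (Apoa1 and Ttr) were above 3 counts in every library, and Alb, Fgb and Cyp2e1 had no count in any. The summed level of this list was 0.927 to 1.39 CPM in controls and 2.03 to 2.56 CPM after knockdown. Apoa1 made up the largest part of that rise, from 0.410 ± 0.0447 to 1.11 ± 0.202 CPM (SD, n = 3). Of 6 epithelial markers 1 (Krt8) was above 3 counts throughout, with sums of 77.9 to 90.3 CPM in controls and 53.1 to 57.2 CPM after knockdown. Endothelial markers (2 of 5) summed to 3.01 to 4.47 and 2.81 to 3.91 CPM, and macrophage markers (2 of 5, Ptprc and Adgre1 with no count in any library) to 10.5 to 12.1 and 15.3 to 17.2 CPM. Fewer cells with a transcript and less of it per cell cannot be told apart in bulk samples.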

How the data were processed

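The authors deposited 1 table of raw counts per gene, whole numbers for each of 6 libraries, with no scaling, as the values show. Each replicate has its own column. The submitters' processing notes name FastQC 0.11.7, fastp 0.14.1 and STAR 2.5, and per the labels' protocols the libraries were stranded and poly-A selected from 500 ng of RNA with integrity numbers of at least 9. Build, annotation, counting tool, strand setting and treatment of reads matching several genes are not given in the sources used here.

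Counts were fitted with edgeR 4.0.16 in R 4.3.3 (expression filter with minimum count 10 and minimum total 15, TMM, quasi-likelihood test, two-sided, prior count 0.125), with both groups, no block, and Benjamini-Hochberg adjustment over 14216 tested genes. Genes with an adjusted p under 0.05 were called, and a positive log2 fold change means more after the Tug1 gapmer. The family sum replaced its 5 genes in a refit of the table. Alternatives used DESeq2 1.42.0, limma 3.58.1 (voom), other scalings and filters, the replicate number as a block, a length offset from RefSeq gene spans and each library left out. Symbols matched RefSeq GRCr8 for 28446 of 40456 genes. Windows were aligned with Biopython 1.88.

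Members and lists were chosen with earlier results of these data known. Named were all members, Gsta6, Tug1, per list the 5 called genes with the smallest p and the 2 most abundant, 4 regulators, and the 5 genes nearest in profile; some of these are not reported here. Flanking genes, motifs and the glutathione transferases called lower were chosen after values were seen. So were Abcc2, Abcc3, Abcg2, Nr1i2, Nr1i3, Mafg, Adh1, Aldh1a3, Txnrd1, Ugdh and Cyp1a1. Scripts were tested on simulated counts.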

Additional observations from a re-analysis of the deposited data

How the results depend on the processing

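The family sum kept its direction in every alternative run. It ran from 1.52 to 1.58 under other scalings, tools, filters, prior count and offsets, and ran from 1.49 to 1.57 over the fits without 1 library. Which genes are summed moved it more: 1.90 without Gsta4, 1.09 without Gsta5 and 1.45 with the other alpha-class entries. Over those fits the log2 fold change ran from 3.99 to 4.19 for Gsta5, from 3.60 to 4.23 for Gsta2, from 1.11 to 1.23 for Gsta1 and from -0.34 to -0.22 for Gsta4. Gsta6 was at 0.83 with the length offset. Tug1 ran from -2.22 to -2.07 over all alternatives.

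Of 9 lists, 8 kept a count of called genes within 1.5 times the main count in every alternative, and AHR targets went from 1 to 2 with no filter, since Cyp1a1 was then tested. Of 54 named genes outside the family, 51 kept their direction and call in 15 alternatives. Gstm2 lost its call without control replicate 1, and Gpx4 with library totals, without control replicate 2 and without knockdown replicate 3. Gpx4 turned to 0.059 under the length offset, and likewise with the block added. Cyp1b1, never called, turned to 0.0488 with library totals, 0.0883 with the length offset, 0.0868 with offset and block, and ran from -0.0767 to 0.0697 over the fits without 1 library, with 0.0600 without control replicate 3. The cause was not tested.

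Replicate numbers did not pair the libraries (correlation of deviations -0.00793, 0.0408 and 0.0368). With the replicate block the family sum was at 1.53 and 8848 genes were called against 8773. Scaling by library totals moved the median of all genes from 0.00 to 0.06. Depth limits Gsta3 and the control values of Gsta2 and Gsta5.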
